A study of Mus musculus with 18 samples.

Results

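The clustered protocadherin genes of the mouse were taken as all genes whose symbol starts with Pcdha, Pcdhb or Pcdhg, which gave 58 of 21901 genes, 14 in the alpha cluster, 22 in the beta cluster and 22 in the gamma cluster. They lie in this order on chromosome 18 of the mm10 build. H3K27me3 had been mapped by CUT&Tag, in which a protein A/G fused to Tn5 transposase cuts and tags the DNA near an antibody-bound histone mark. Each library came from 1 headfold, the part of the embryo that forms the head, dissected at embryonic day 8.5. Every embryo was Gulo-/-, a genotype without the last enzyme of vitamin C synthesis, so that the embryo depended on the vitamin C it was given. The groups were B6 without vitamin C, B6 with vitamin C, 129 without vitamin C and 129 with vitamin C, and vitamin C was supplied at 3.3 g/l in the drinking water. A peak list was available for 3 libraries of each group, 12 in all, and each group had 2 female and 1 male embryos. Replicates are numbered here in the order of deposit, since the labels give no replicate number, so equal numbers pair nothing, and the B6 libraries with a list are numbers 1, 2 and 4. Not analysed here were the 4 IgG samples and 2 more samples of B6.

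The gene group was chosen by an earlier result from these lists, the presence of peaks at Pcdhgc4 and Pcdhgc5 in B6 libraries with vitamin C and their absence in B6 libraries without it. The diet contrast in B6 is therefore given as a description with no test.

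Clustered protocadherins are adhesion proteins of the neuronal surface, and each neuron shows its own combination of them, by which its branches recognise and avoid one another. In the alpha and gamma clusters every variable gene has a first exon and a promoter of its own, which are spliced to constant exons at the shared 3′ end of the cluster, whereas each beta gene is a single exon with its own end. The last genes of the alpha and gamma clusters, Pcdhac1, Pcdhac2, Pcdhgc3, Pcdhgc4 and Pcdhgc5, are the C types, which are used more widely among neurons than the variable genes that are switched on by promoter choice. H3K27me3 is laid down by Polycomb repressive complex 2 and marks the promoters of many developmental genes in cells where they are silent.

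The annotation used here gives gene ends but no exons. The place of each variable or C-type first exon was therefore taken as the 2.5 kb from the 5′ end of the gene, called its window, and a window was called marked where a peak covered at least 1 bp of it. The alpha cluster ran over chr18:36930285-37188897, a span of 259 kb with 12 variable and 2 C-type genes. The beta cluster ran over chr18:37264998-37521419, a span of 256 kb with 22 variable genes. The gamma cluster ran over chr18:37661775-37841873, a span of 180 kb with 19 variable genes, among them the transcribed pseudogene Pcdhgb8, and 3 C-type genes.

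The 12 lists held 748 to 4726 peaks, covered 3.58 to 31.7 Mb and had a median peak width of 1.32 to 8.45 kb. Reads per library are not part of the lists, so the depth behind them is unknown, and a missing peak says only that none was called. The share of all 26252 gene windows that was marked was 4.08%, 2.20% and 7.89% in B6 without vitamin C, 6.94%, 6.51% and 13.0% in B6 with vitamin C, 10.5%, 3.90% and 10.8% in 129 without vitamin C, and 10.9%, 6.83% and 8.86% in 129 with vitamin C. The shortest list, of B6 without vitamin C replicate 2, held no peak on any of the clusters. The median peak width was under 2 kb in B6 without vitamin C replicate 1 and in B6 with vitamin C replicate 2. All 3 embryos of B6 with vitamin C carry 1 code of pregnancy, and the other 9 embryos carry 9. Library numbers run with the background, so the order of preparation and the background cannot be told apart. Among the marker genes, those of the trunk and posterior body (5 of 5) were marked in at least 10 libraries. The anterior neural genes Hesx1, Sox2, Otx2 and Sox1 were marked in 0, 1, 2 and 7 libraries, and Six3 and Pax6 in 11 each. Of the surface ectoderm and epithelial genes, Tfap2a was marked in 8 libraries, Cdh1 in 3, Krt8 in 1 and Krt18 in 0. Of the heart and blood genes, Nkx2-5 and Tbx5 were marked in 12 and 11, and Gata1 and Hbb-bh1 in 0. Of 5 housekeeping genes, 4 were marked in 0 libraries and Actb in 1.

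Peaks on the clustered protocadherins were found on the gamma cluster and on the C-type genes of the alpha cluster. Of the 58 members, 22 (37.9%) were marked in at least 1 library, against 14.7% of all gene windows. These 22 members were 17 of the 19 gamma variable genes, all 3 gamma C-type genes and both alpha C-type genes. The 12 alpha variable genes, from Pcdha1 to Pcdha12, and the 22 beta genes, from Pcdhb1 to Pcdhb22, were marked in 0 of 12 libraries, as were Pcdhga2 and Pcdhga3. Marking in at least 10 of 12 libraries was reached by 1 member (1.72%), Pcdhac2, against 4.12% of all windows, so steady marking was not more common among the members than elsewhere. Members marked per library numbered 4, 0 and 9 in B6 without vitamin C, 5, 17 and 14 in B6 with vitamin C, 21, 4 and 17 in 129 without vitamin C, and 15, 5 and 9 in 129 with vitamin C. The 4 groups overlapped in this count, and each had at least 1 library with 5 or fewer marked members. In 11 libraries the share of gamma windows marked was above the share of all windows in the same library, with a ratio between these shares of 2.62 to 11.2.

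**Figure D1:**
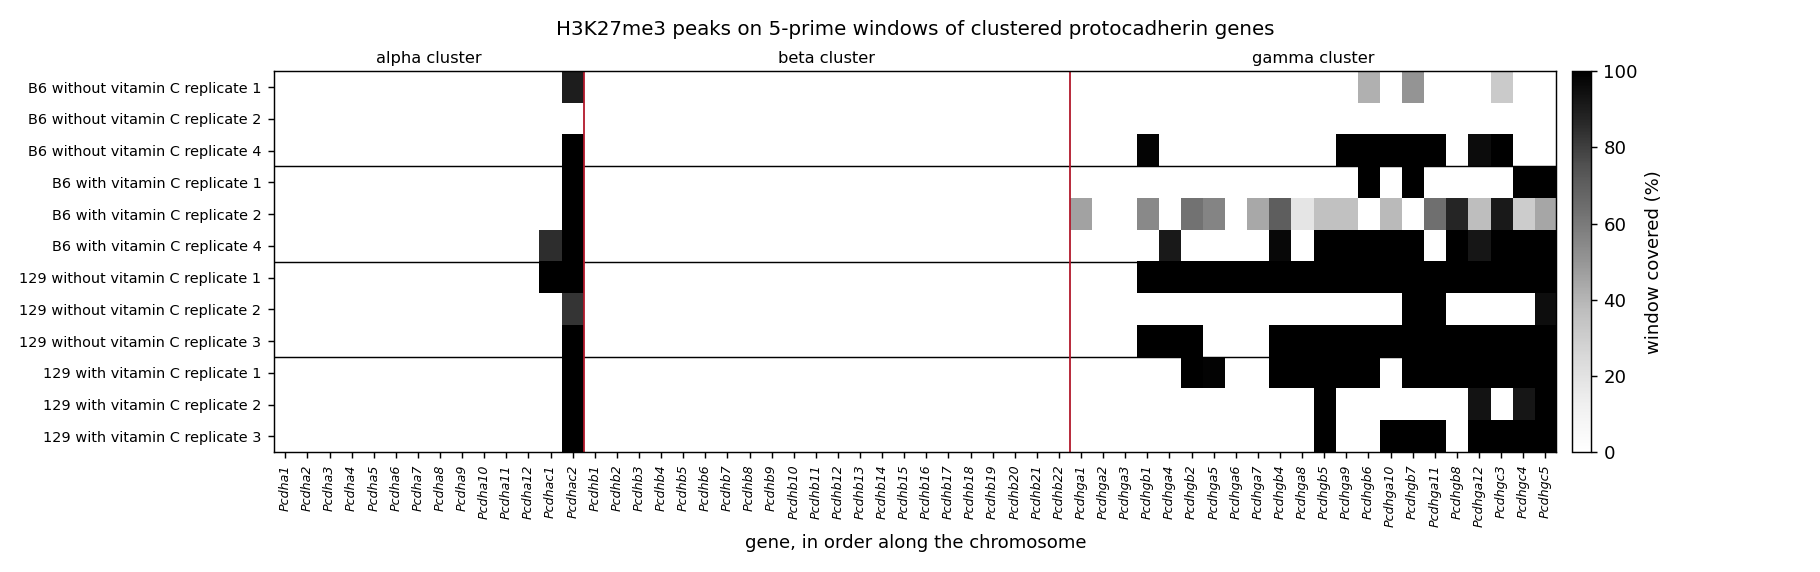
Percent of each 2.5 kb window covered by H3K27me3 peaks (grey scale, 0 to 100%), with the 58 genes in chromosome order across and the 12 libraries down, 3 for each background and diet. Shading is seen at the right end of the alpha cluster and over the gamma cluster, and the 22 beta columns are blank in every library.

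Over the whole clusters, peaks covered a mean of 20.9% of the gamma span, with a range of 0 to 57.1% over the 12 libraries. They covered a mean of 2.21% of the alpha span, with a range of 0 to 4.58%, and 0% of the beta span in all 12 libraries. The 76.1 kb between the alpha and beta clusters also held no peak in any library. Between the beta and gamma clusters lie Slc25a2, which encodes a mitochondrial ornithine carrier, and Taf7, which encodes a subunit of the general transcription factor TFIID, and neither had a peak in its body in any library. The 140 kb between these clusters was covered over 0.159% of its length in 1 library, by the edge of a peak on Pcdhga1. Within the alpha span the part before Pcdhac1 was covered in 2 libraries, at 0.744% and 1.17%, by the edge of peaks on Pcdhac1. Beyond the gamma cluster, Diaph1, which encodes an actin-nucleating formin and starts 1.73 kb after the last gamma gene ends, and Hdac3, which encodes a histone deacetylase, had peaks in 0 of 12 libraries. The nearest peak before the alpha cluster lay 199 to 605 kb away and the nearest peak after the gamma cluster 183 to 4550 kb away. The marked genes thus stood in long stretches with no called peak.

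The peaks sat at the 5′ ends of the genes. The 12 lists held 80 peaks on the clusters, 13 on alpha and 67 on gamma, with a width of 0.896 to 56.3 kb and a median of 3.56 kb. Of these peaks, 79 (98.8%) overlapped at least 1 window, and in 72 (90%) the place of highest signal, as given by the authors, was itself inside a window. The highest signal lay a median of 0.745 kb inside the gene from the nearest 5′ end. In the gamma cluster neighbouring starts often lie only a few kb apart. This by itself limits the distance and makes overlap with a window frequent. Windows made up 30.5% of the gamma span but held a median of 68.2% of the peak length there, with a range of 45.7 to 87.5% over 11 libraries. In the alpha cluster from Pcdhac1 onwards the windows made up 5.06% of the length and held a median of 59.2% of the peak length, with a range of 24.4 to 91.1%.

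**Figure D2:**
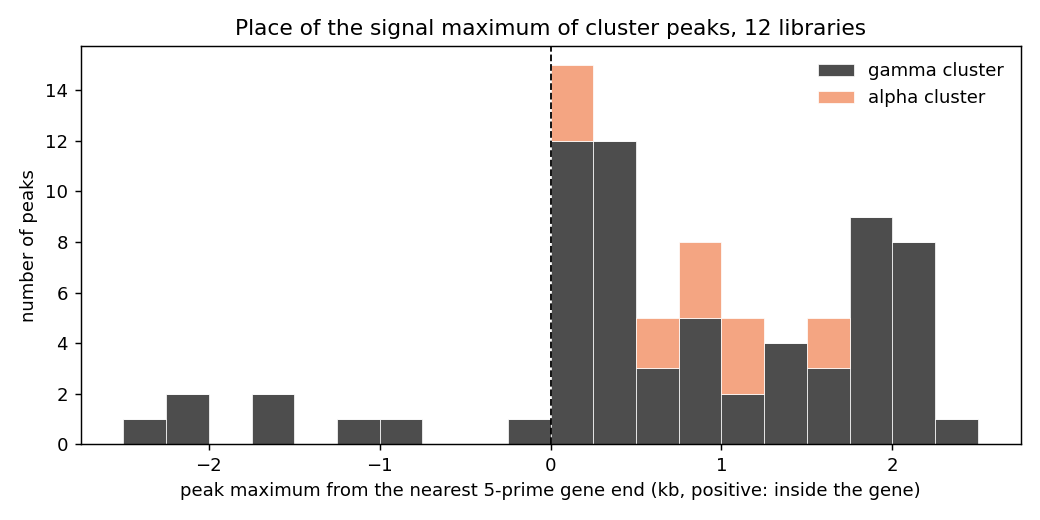
Distance of the place of highest signal from the nearest 5′ gene end (kb, positive values inside the gene) for the 80 cluster peaks of the 12 libraries, as number of peaks per bin. The maxima lie between 2.30 kb before and 2.47 kb inside a gene. Starts of neighbouring gamma genes often lie only a few kb apart, which by itself limits this distance.

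The shared 3′ ends, each counted once, carried no peak. The alpha end at chr18:37187657, where 13 of the 14 alpha genes end within 1 kb, and the gamma end at chr18:37841870, where 21 of the 22 gamma genes do, were marked in 0 of 12 libraries, both within 1 kb on either side and over the last 5 kb. In the 11 libraries with peaks, the last alpha peak stopped 37.9 to 41.9 kb before the shared end, and the last gamma peak 16.4 to 32.6 kb before it. Gm29994, a long non-coding RNA that lies between the 5′ window of Pcdhgc5 and the gamma end, had a peak in 0 libraries.

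Of the alpha C types, Pcdhac2 was the most widely marked member. Pcdhac2 is needed in mice for serotonergic axons to spread evenly over their target areas. Its window, chr18:37143678-37146177, was covered at 90.2%, 0% and 100% in B6 without vitamin C, at 100% in each of the 3 libraries of B6 with vitamin C, at 100%, 82.9% and 100% in 129 without vitamin C, and at 100% in each of the 3 libraries of 129 with vitamin C. The 11 marked libraries each had a single peak there, 2.48 to 10.2 kb wide, which overlapped no other window. Pcdhac1, whose window is chr18:37090136-37092635, was covered at 84.8% in B6 with vitamin C replicate 4 and at 100% in 129 without vitamin C replicate 1, and at 0% in the other 10 libraries. The alpha C types thus differed from each other, with 11 libraries for Pcdhac2 against 2 for Pcdhac1, and the 1 library without a peak at Pcdhac2 was the one with the shortest list.

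Of the gamma C types, Pcdhgc3 was marked in 8 libraries, Pcdhgc4 in 8 and Pcdhgc5 in 9. Pcdhgc3, which promotes dendrite branching in mouse cortical neurons, has the window chr18:37806410-37808909. It was covered at 31.3%, 0% and 100% in B6 without vitamin C, 0%, 91.4% and 100% in B6 with vitamin C, 100%, 0% and 100% in 129 without vitamin C, and 100%, 0% and 100% in 129 with vitamin C. Each of the 4 groups therefore had 2 marked libraries of 3 at Pcdhgc3.

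Pcdhgc4, on which the survival of many mouse neurons depends, has the window chr18:37815079-37817578. It was covered at 0% in all 3 libraries of B6 without vitamin C, at 100%, 30.8% and 100% in B6 with vitamin C, at 100%, 0% and 100% in 129 without vitamin C, and at 100%, 92.5% and 100% in 129 with vitamin C. Pcdhgc5, whose protein binds GABA-A receptors, has the window chr18:37819546-37822045. It was covered at 0% in all 3 libraries of B6 without vitamin C, at 100%, 44.6% and 100% in B6 with vitamin C, at 100%, 95.0% and 100% in 129 without vitamin C, and at 100% in all 3 libraries of 129 with vitamin C. In B6 the diet groups did not overlap at Pcdhgc4 and Pcdhgc5, which is the pattern by which the gene group was chosen, and in 129 both diets had marked libraries at both genes.

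In the map of the peaks the gamma C types formed a domain with similar edges wherever it was wide. In 129 without vitamin C replicates 1 and 3 and in 129 with vitamin C replicates 1 and 3, a single peak of 22.5 to 25.8 kb spanned the windows of Pcdhgc3, Pcdhgc4 and Pcdhgc5. Its left edge lay 5.08 to 7.01 kb before the start of Pcdhgc3 and its right edge 3.78 to 5.90 kb after the start of Pcdhgc5. In 129 with vitamin C replicate 2 and in B6 with vitamin C replicate 4 a single peak, of 8.01 and 8.64 kb, spanned Pcdhgc4 and Pcdhgc5 only. In B6 with vitamin C replicates 1 and 2 these genes had a peak each, 3.98 and 3.69 kb wide in replicate 1 and 1.56 and 1.12 kb wide in replicate 2. The distance between the windows of Pcdhga12, the last variable gene, and Pcdhgc3 is 38.3 kb, and 29.7 kb of it, chr18:37769657-37799402, held no peak in any library.

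**Figure D3:**
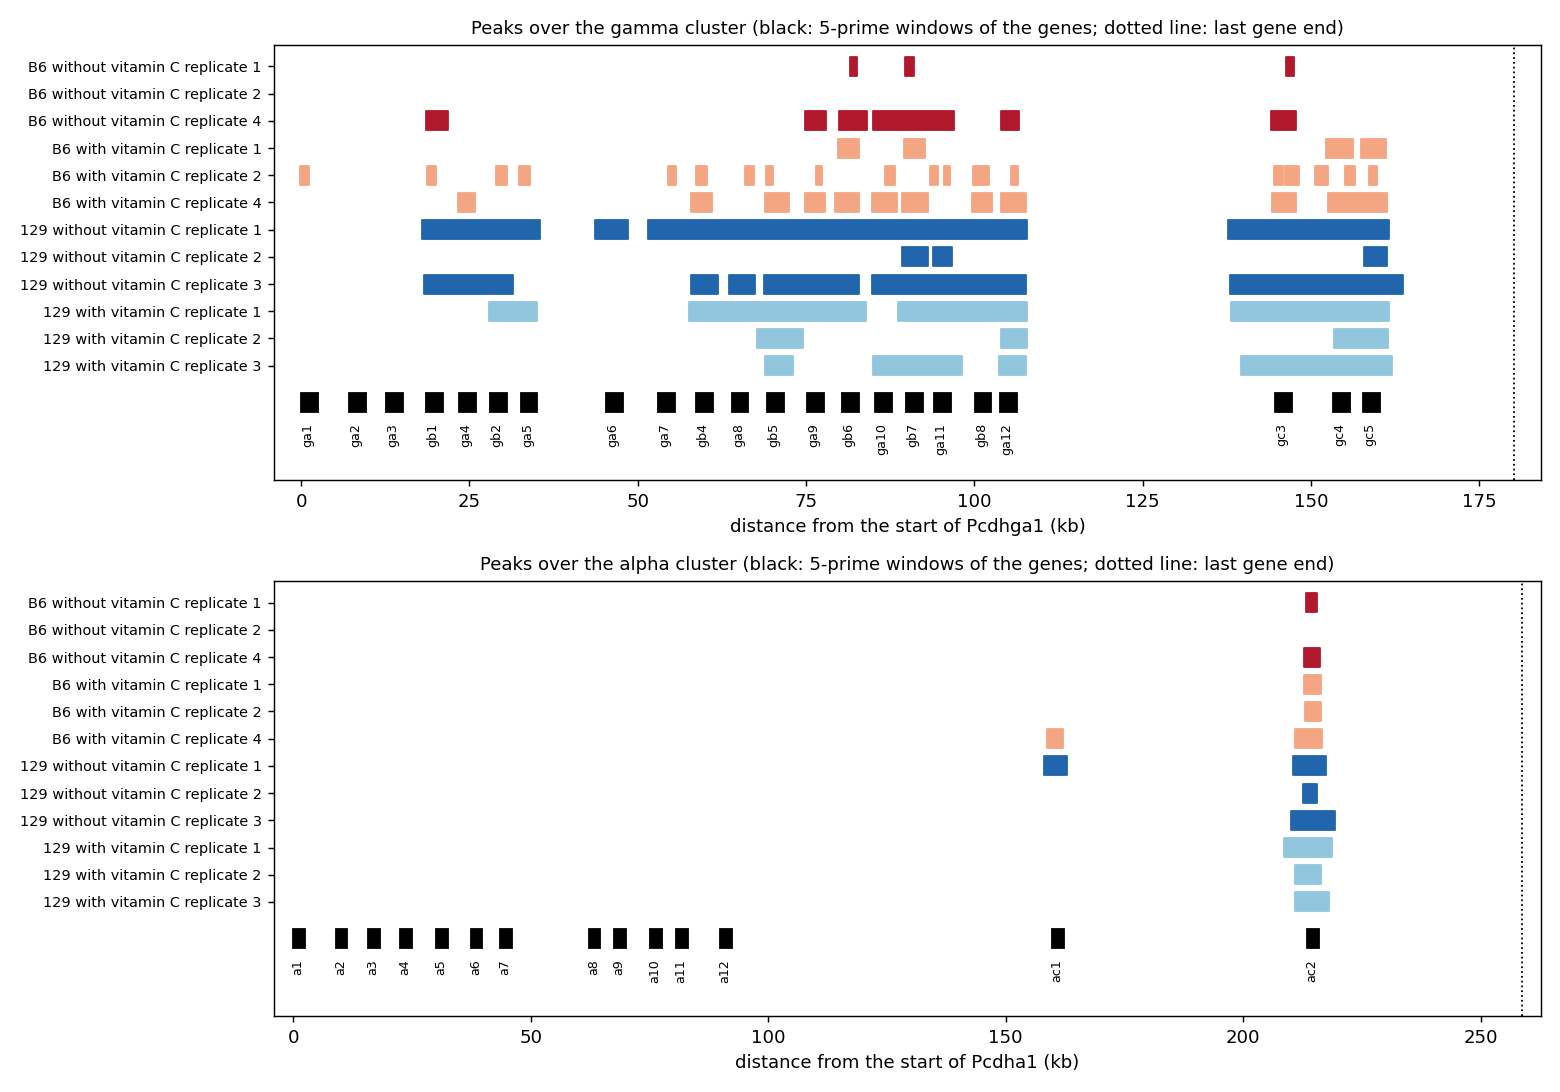
Peaks of the 12 libraries as bars over the gamma cluster (top) and the alpha cluster (bottom), with distance in kb from the first gene of the cluster across and libraries down. Black boxes are the 2.5 kb windows and the dotted line is the last gene end. The gamma peaks fall into a left domain that ends at Pcdhga12 and a right domain over Pcdhgc3 to Pcdhgc5, with 29.7 kb between them free of peaks in every library.

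Among the gamma variable genes, marking was more frequent towards the C-type end. The first 9 genes by position, Pcdhga1 to Pcdhga7, were marked in a median of 2 libraries with a range of 0 to 4. The last 10, Pcdhgb4 to Pcdhga12, were marked in a median of 6.5 libraries with a range of 4 to 9. Over the 19 genes, Spearman's rho between position and number of libraries was 0.86, and between position and mean percent covered 0.86. This is a description across genes, which share peaks and libraries and are not independent. The gamma B genes, interspersed among the gamma A genes, were marked in a median of 5 libraries (7 genes), and the gamma A genes in a median of 3 libraries (12 genes). The first gene, Pcdhga1, was marked in 1 library, of B6 with vitamin C.

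The most often marked variable gene was Pcdhgb7, with 9 libraries. Its window was covered at 50.4%, 0% and 100% in B6 without vitamin C, 100%, 0% and 100% in B6 with vitamin C, 100%, 100% and 100% in 129 without vitamin C, and 100%, 0% and 100% in 129 with vitamin C. Every group had at least 2 marked libraries at Pcdhgb7. Pcdhga12, the last variable gene, followed with 8 libraries, and was covered at 0%, 0% and 95.7% in B6 without vitamin C, 0%, 37.1% and 92.6% in B6 with vitamin C, 100%, 0% and 100% in 129 without vitamin C, and 100%, 93.3% and 100% in 129 with vitamin C. In its 8 libraries the right edge of the peak lay 2.69 to 4.08 kb after the start of Pcdhga12, a narrow range set beside peak widths that reached 56.3 kb.

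Pcdhga11, Pcdhgb6 and Pcdhgb5 were marked in 7 libraries each. Pcdhga11 was covered at 0%, 0% and 100% in B6 without vitamin C, 0%, 63.7% and 0% in B6 with vitamin C, 100% in each library of 129 without vitamin C, and 100%, 0% and 100% in 129 with vitamin C. Pcdhgb6 was covered at 41.7%, 0% and 100% in B6 without vitamin C, 100%, 0% and 100% in B6 with vitamin C, 100%, 0% and 100% in 129 without vitamin C, and 100%, 0% and 0% in 129 with vitamin C. Pcdhgb5 was covered at 0% in each library of B6 without vitamin C, 0%, 35.9% and 100% in B6 with vitamin C, 100%, 0% and 100% in 129 without vitamin C, and 100% in each library of 129 with vitamin C. At each of these genes the diets overlapped within each background, and the backgrounds overlapped within each diet. At Pcdhgb6 all groups overlapped.

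The lists differed in how the gamma signal was divided into peaks. In 129 without vitamin C replicate 1 there were 4 gamma peaks on 19 windows, and the widest, of 56.3 kb, spanned the 11 windows from Pcdhga7 to Pcdhga12. In B6 with vitamin C replicate 2, a library of short peaks, there were 19 gamma peaks on 16 windows, the widest of 2.37 kb, and each overlapped at most 1 window. Of the 80 cluster peaks, 16 overlapped at least 2 windows. A window covered at 100% in the 129 libraries is therefore often part of a wide peak that covers its neighbours too.

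The authors' total signal of a peak was used to rank it within its own list, as the percent of peaks in the list with a lower value, since signal carries no scale common to all lists. Total signal adds up over the width of a peak, so wide peaks rank higher. All cluster peaks had a median rank of 36.6. The Pcdhac2 peaks ranked between 6.52 and 86.2 with a median of 65.7 over 11 libraries, and the Pcdhac1 peaks at 22.3 and 10.0. The highest gamma C-type peak of each library ranked between 13.0 and 94.4 with a median of 67.7, and the highest of the other gamma peaks between 11.3 and 98.5 with a median of 73.9, over 11 libraries each. The 56.3 kb peak of 129 without vitamin C replicate 1 was number 44 of 2981 in its list.

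The ranks of the peaks on Pcdhgc4 and Pcdhgc5 overlapped between the backgrounds. In B6 with vitamin C they ranked at 9.78 and 38.9 in replicate 1 and at 32.2 and 40.3 in replicate 2, and their common peak in replicate 4 ranked at 73.5. In 129 without vitamin C the peak over Pcdhgc3 to Pcdhgc5 ranked at 93.9 in replicate 1 and 94.4 in replicate 3, and the peak on Pcdhgc5 alone at 15.7 in replicate 2. In 129 with vitamin C the peak over both genes ranked at 87.7 in replicate 1, 63.3 in replicate 2 and 90.8 in replicate 3. By maximum signal, which does not add up over width, the 22.5 to 25.8 kb peaks ranked lower, at 73.1 and 81.6 without and 45.1 and 52.2 with vitamin C.

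**Figure D4:**
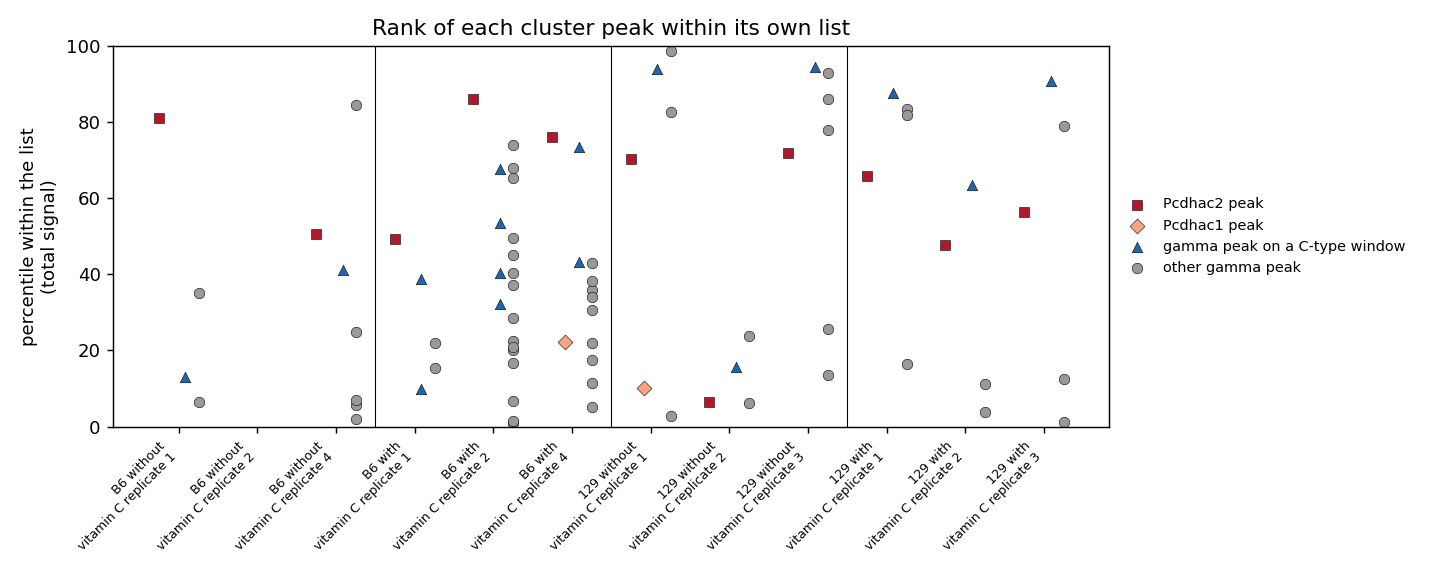
Percentile of each cluster peak within its own list by total signal (0 to 100) for the 12 libraries, with separate symbols for peaks on Pcdhac2, on Pcdhac1, on gamma C-type windows and elsewhere on the gamma cluster. The highest gamma peak of a library ranks at 98.5 in 129 without vitamin C replicate 1 and at 23.7 in replicate 2 of that group. In the B6 libraries with gamma peaks it ranks from 35.2 to 84.4.

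The comparison of diets within B6 asked whether marking of these genes differed when the mother received no vitamin C. Percent of the gamma span covered was 6.04% ± 8.82 without and 15.4% ± 7.84 with vitamin C (SD, n = 3 each), and the diets overlapped. Over the gamma span from Pcdhgc3 to the last gene end it was 4.00% ± 4.51 without and 26.0% ± 6.44 with vitamin C (SD, n = 3 each), with ranges of 0 to 8.88% and 21.6 to 33.4% that did not overlap. Over the gamma variable genes, before Pcdhgc3, it was 6.54% ± 9.91 without and 12.8% ± 8.33 with vitamin C, and over the alpha cluster from Pcdhac1 onwards 1.96% ± 1.75 without and 4.95% ± 2.56 with vitamin C (SD, n = 3 each). Both alpha C types and 14 gamma genes were marked in more libraries with than without vitamin C, 16 members (27.6%), against 9.88% of all windows. In the other direction there were 0 members, against 0.324% of all windows. Pcdhgc4 and Pcdhgc5 were the 2 members (3.45%) marked in all 3 libraries with and 0 without vitamin C, against 0.229% of all windows, and the reverse pattern was met by 0 members and 0% of windows. Since these contrasts chose the gene group, nothing is read from them. The largest differences among variable genes were at Pcdhgb4, Pcdhgb5 and Pcdhgb8, each marked in 0 libraries without and 2 with vitamin C.

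The B6 lists without vitamin C were also shorter over the whole genome, with 4.72% ± 2.90 of all windows marked against 8.82% ± 3.63 with vitamin C (SD, n = 3 each). The part of list length in the difference on the gamma cluster was not tested by a model. As a share of all covered sequence in the list, the gamma cluster took 0.0975% ± 0.0971 without and 0.197% ± 0.102 with vitamin C, and its C-type end 0.0173% ± 0.0158 without and 0.0682% ± 0.0248 with vitamin C (SD, n = 3 each). Among equal lists, the 748 peaks of largest total signal in each library, gamma windows marked summed to 3 without and 0 with vitamin C. Those 3 lay under a single peak of 12.1 kb in B6 without vitamin C replicate 4. Pcdhgc4 and Pcdhgc5 were marked in 0 of the 6 B6 lists. With all peaks, gamma windows marked per library differed by a mean of -7 without minus with vitamin C, which was -4.33 when B6 with vitamin C replicate 2 was left out.

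In 129 the diets did not separate. Percent of the gamma span covered was 36.4% ± 27.2 without and 25.7% ± 15.9 with vitamin C (SD, n = 3 each). Over the C-type end it was 37.1% ± 23.9 without and 39.8% ± 14.9 with vitamin C. Over the gamma variable genes it was 36.3% ± 28.3 without and 22.2% ± 17.1 with vitamin C, and over the alpha cluster from Pcdhac1 onwards 7.51% ± 3.95 without and 7.71% ± 2.47 with vitamin C. All of these ranges overlapped between the diets. Marking was more frequent without vitamin C at 14 members (24.1%), against 2.3% of all windows, and more frequent with vitamin C at 3 members (5.17%), Pcdhgb5, Pcdhga12 and Pcdhgc4, against 3.85%. Most of the 14 genes share wide peaks of 129 without vitamin C replicates 1 and 3, so they are not 14 separate observations. Pcdhgb1 and Pcdhga4 differed most, each marked in 2 libraries without and 0 with vitamin C, and Pcdhgb7 was next by coverage among genes that differed by 1 library, with 3 libraries without and 2 with vitamin C. Marking in every library of a single diet and in 0 of the second diet was met by 0 members, against 0.0114% of all windows.

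By an exact two-sided permutation test on percent of window covered (20 relabellings, smallest possible p = 0.1), adjusted over all windows by the Benjamini-Hochberg method, 0% of the 26252 windows passed 0.05 between the diets in 129. No window could have reached an unadjusted p under 0.05, 30 windows had the smallest p, and the lowest p of a member was 0.4. Gamma windows marked per library averaged 4 more without than with vitamin C. This difference was 8.83 when replicate 2 of 129 without vitamin C was left out, 0.833 and 2.33 when replicate 1 or 3 of that group was, and 6.67 and 1.67 when replicate 1 or 2 of 129 with vitamin C was. Whether the diet effect differed between the backgrounds was not tested.

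**Figure D5:**
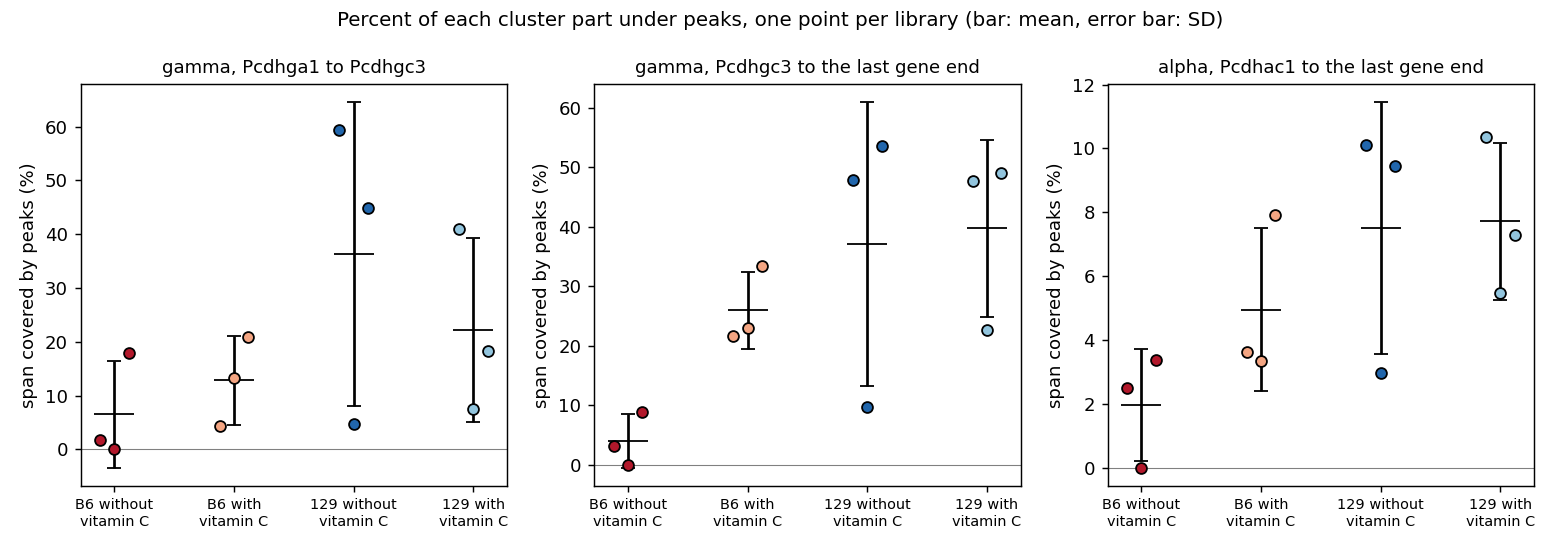
Percent of the length covered by peaks in the gamma cluster before Pcdhgc3 (left), from Pcdhgc3 to the last gene end (middle) and in the alpha cluster from Pcdhac1 onwards (right), with 1 point per library, a horizontal line for the mean and an error bar for the SD of 3 libraries, for B6 without, B6 with, 129 without and 129 with vitamin C. In the middle panel the 3 libraries of B6 without vitamin C lie at 0 to 8.88% and those of B6 with vitamin C at 21.6 to 33.4%, and the 129 diets overlap.

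Between backgrounds no member passed the test. Percent of window covered was compared by exact permutation within diet (400 relabellings, two-sided). Libraries were permuted as separate units, although the 3 embryos of B6 with vitamin C carry 1 code of pregnancy. The p-values take no account of this. Pcdhga12 was covered at 37.6% ± 46.1 in B6 and 82.2% ± 40.4 in 129 (SD, n = 6 each, exact permutation p = 0.07, adjusted p = 1). Pcdhga11 and Pcdhgb5 were each marked in 2 libraries of B6 and 5 of 129, with mean coverage of 27.3% and 22.7% in B6 and 83.3% for both genes in 129 (exact permutation p = 0.08 each, adjusted p = 1). At Pcdhgb5 the 2 marked B6 libraries were both with vitamin C. The window of Pcdhgc5 was covered at 40.8% ± 49.0 in B6 and 99.2% ± 2.02 in 129 (SD, n = 6 each), with 3 of 6 B6 and 6 of 6 129 libraries marked. Pcdhgc4 was covered at 38.5% ± 49.1 in B6 and 82.1% ± 40.3 in 129 (SD, n = 6 each). For Pcdhgc4 and Pcdhgc5 these values are a description and nothing is read from their p, since their B6 values chose the gene group.

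Over all 26252 windows, 0% passed an adjusted p of 0.05 between backgrounds. An unadjusted p under 0.05 was found at 182 (0.693%), among them 0 members. Pcdhgc4 and Pcdhgc5 were among the windows tested here, and Pcdhgc5 lay at the threshold itself (exact permutation p = 0.05). Nothing is read from that value, since the B6 values of Pcdhgc5 chose the gene group. The smallest possible p of this permutation test was 0.005, reached by 21 windows. Adjusted over 26252 windows, so few at that p cannot pass 0.05, and the adjusted result decides nothing about single genes. More libraries were marked in 129 than in B6 at 14 members (24.1%), against 8.28% of all windows. These 14 include Pcdhgc4 and Pcdhgc5, whose B6 values chose the gene group. Several of the 14 share wide peaks of 129 libraries, so they are not 14 separate observations, and the share is a description. More libraries were marked in B6 than in 129 at 2 members (3.45%), Pcdhga1 and Pcdhgb6, against 3.11%. With a window of 1 kb on either side of the 5′ end, 4 members had an unadjusted p under 0.05, against 176 of all windows. Pcdhgc5 was among the 4, and since its B6 values chose the gene group, nothing is read from its p. In the equal lists of 748 peaks by total signal, gamma windows summed to 3 and 0 in B6 without and with vitamin C, and to 32 and 20 in 129 without and with vitamin C. The 32 came from 18 in replicate 1 and 14 in replicate 3, where wide peaks cover many windows. In equal lists by maximum signal, which does not add up over width, the sums were 1 and 0 in B6 and 4 and 0 in 129.

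Related genes were counted in the same way. The non-clustered protocadherins, adhesion genes each with a promoter of their own, were matched for 13 of 14 symbols and marked in a median of 3 libraries. Pcdh8 and Pcdh10 were marked in all 12 libraries, Pcdh17 in 9, Pcdh19 in 8 and Pcdh20 in 6, and Pcdh9, Pcdh12 and Pcdh18 in 0. For Pcdh17 these were 3 of 6 libraries without and 6 of 6 with vitamin C, in 4 of 6 libraries of B6 and 5 of 6 of 129. Pcdh1 was marked in 0 libraries without and 3 with vitamin C, and Pcdh8, Pcdh10 and Pcdh15 in as many without as with. These splits are a description, and the B6 lists without vitamin C were shorter over the whole genome. Of 19 classical cadherins, 12 were marked in 0 libraries, and Cdh8 and Cdh22 in 11 each. Of 19 regulators of protocadherin promoter choice, such as Ctcf, the cohesin subunits and Smchd1, 17 were marked in 0 libraries, and the others were the DNA methyltransferase gene Dnmt3a with 4 and the DNA dioxygenase gene Tet2 with 2. Of 19 partners and effectors, 18 were marked in 0 libraries, and the kinase gene Ptk2b in 7. Over all gene windows 14.7% were marked in at least 1 library, and nothing particular to these lists is read from their counts. In none of these lists did a window pass the adjusted test between backgrounds or between diets in 129. With the smallest p these tests allow, a few windows could not have passed, so nothing is read from this.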

How the data were processed

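H3K27me3 CUT&Tag peak lists of 12 libraries were used. Per the submitters' processing notes, cutadapt, Bowtie2, Picard and SEACR were used on the build mm10. The sources used here name no version or option for them. Each deposited list holds peak positions with a total and a maximum signal, which the authors did not visibly scale to a common depth. Peaks were ranked or filtered by signal within their own list and never across lists.

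Gene positions came from the RefSeq table of GRCm38.p6, the assembly of mm10, and coordinates are 1-based. A window was the 2.5 kb from the 5′ end of a gene. For 17550 genes that end was known, and for 4351 others both ends were windows. Percent of window covered was compared by exact permutation with Benjamini-Hochberg adjustment over 26252 windows, using code tested on simulated data. Replicates are embryos, 1 per library.

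Members and lists were chosen with earlier results of these data known. Genes named are all C types and, among variable genes, the first, the last, the 4 marked most often and the 3 with the largest difference in marked libraries per contrast (ties by mean percent covered), with genes near or between the clusters. Alternatives changed the window, the overlap, the peak filter, the list length, joining, ranking and the libraries. Computations ran in Python 3.11.15 with pandas 2.3.3, NumPy 2.4.6, Matplotlib 3.10.9 and SciPy 1.17.1.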

Additional observations from a re-analysis of the deposited data

How the results depend on the processing

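No paired analysis was possible because the labels give no replicate numbers, and those used here follow the order of deposit. With equal lists of 748 peaks by maximum signal, members marked per library fell to a mean of 0.75, against 10, and percent of the gamma span covered to 1.57%, against 20.9%. The B6 difference in gamma windows marked per library, without minus with vitamin C, was -7. It was -1.33 with peaks at or above the list's median maximum signal, 1 with equal lists by total signal and 0.333 with equal lists by maximum signal. Under each of these 3 settings 0 members, in place of 1, were marked in at least 10 of 12 libraries. The cause of these changes was not tested. Leaving out 1 library at a time gave 9 to 10.9 members per library, -10.3 to -4.33 gamma windows for the diets in B6, 0.833 to 8.83 for the diets in 129 (4 with all libraries) and -5.92 to -1.83 for B6 minus 129 (-3.5 with all libraries). Of the last, the lowest came without 129 without vitamin C replicate 2 and the highest without B6 with vitamin C replicate 1. It gave 17.6 to 22.8% of the gamma span covered and a median rank of 35.2 to 38.9. Members in at least 10 libraries stayed at 1, and windows passing the adjusted tests at 0, under every such omission. The latter says little, since the smallest possible p of these tests is too large for a few windows to pass. Between backgrounds, members with an unadjusted p under 0.05 numbered 0 to 2 when 1 library was left out (115 to 421 of all windows), 2 with equal lists by total signal (69) and 1 with 1 value per pregnancy code (139). Pcdhgc5 was among those of the last 2 settings and among those of some omissions. Since its B6 values chose the gene group, nothing is read from its p in any of them. The number of reads per library, and so the depth limit on a missing peak, is unknown.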
